A study of Mus musculus with 3 samples.

Results

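Chromatin immunoprecipitation (ChIP) data from mouse cerebral cortex at E13.5 were examined at 9 genes for transcription factors of the ventral telencephalon and of interneurons, *Dlx1*, *Dlx2*, *Dlx5*, *Dlx6*, *Gsx2*, *Nkx2-1*, *Lhx6*, *Isl1* and *Olig2*. They were chosen by name, with no threshold on the measurements but with earlier results of these data known, and are 9 of the 21951 protein-coding genes in GENCODE M21. *Dlx1* and *Dlx2*, and likewise *Dlx5* and *Dlx6*, are neighbours, so the genes lie at 7 loci. The series held 3 libraries, 1 each from input chromatin, NF-Y-ChIP with an antibody against the subunit NF-YC, and H3K4me3-ChIP. All came from formalin-fixed, sonicated cortices, for which strain, genotype and number of embryos are not given in the sources used here, and no group was treated. Peak lists of NF-Y-ChIP (733 peaks) and H3K4me3-ChIP (18816 peaks) were analysed. The second list is shorter than the set of H3K4me3 regions described in the study. A peak was counted for a gene when it overlapped the gene or the 5 kb upstream of it, which is the criterion of the study. Because each antibody was used on 1 library, values carry no replicate error, no difference could be tested, and the read depth behind a peak is unknown.

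In the embryonic forebrain, the ganglionic eminences lie ventral to the cortex and give rise to striatal neurons and to interneurons, which migrate tangentially into the cortex. Gsx2 patterns progenitors of the lateral ganglionic eminence, Nkx2-1 specifies the medial eminence, and Dlx proteins act in the differentiation and migration of neurons from both. Excitatory projection neurons of the cortex arise instead from dorsal progenitors, which express factors such as Pax6 and Emx1. Trimethylation of lysine 4 of histone H3 (H3K4me3) marks the start of transcribed genes and also CG-rich promoters of developmental genes at low activity, and NF-Y is a ubiquitous factor that binds CCAAT.

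Promoter sequences are shown first, because both measurements bear on them. The RefSeq promoter table (GRCm38.p6) holds windows from 250 bp before to 50 bp after the start site for 7 of the 9 genes, all but *Dlx5* and *Dlx6*, with 9 windows in all and 3 for *Lhx6*. CCAAT or its reverse complement ATTGG, which can share bases where they meet, occurred in the windows of *Dlx2*, *Isl1*, *Lhx6* and *Olig2*. That is 4 of 7 genes, against 42.5% of the 11069 marked protein-coding genes in the table, where marked means holding at least 1 H3K4me3-ChIP peak. Those that carry the comparison with the peaks are written along the strand of the gene with 10 bp on each side and the motif in capitals, and the first base of the motif is placed relative to the RefSeq start site:

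*Dlx2* at −74 bp, chr2:71546814-71546838, minus strand: attccttctgATTGGctgttgctag

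*Isl1* at −80 bp, chr13:116309754-116309778, minus strand: cgccccgcagCCAATgggcgcggcg

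*Isl1* at −34 bp, chr13:116309708-116309732, minus strand: ctgcgtcagaCCAATggcgatggag

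*Olig2* at −203 bp, chr16:91225337-91225361, plus strand: gcgggcgcccATTGGctgtgtgctg

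*Olig2* at −98 bp, chr16:91225442-91225466, plus strand: ggcccagctcATTGGcgcctctgcc

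*Lhx6* at −193 bp, chr2:36105587-36105611, minus strand: cggggaggggATTGGtcacgcatga

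Of the 7 motifs found in the windows, 6 lay wholly inside an H3K4me3-ChIP peak, and only these 6 are shown. None of the 7 lay in an NF-Y-ChIP peak, since no NF-Y-ChIP peak was found at any of the genes, as described further on.

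The windows also differed in CG dinucleotides. *Isl1* had 37 in its window, more than 92.5% of the 20150 windows of protein-coding genes, whose median was 14 with an interquartile range of 4 to 25. *Dlx2* had 29, *Dlx1* 27 and *Olig2* 25, while *Gsx2* had 17. *Nkx2-1* had 12, and the windows of *Lhx6* had 16, 17 and 11. The 250 bp before the RefSeq start site of *Isl1* and *Nkx2-1*, the genes with the most and the fewest at the annotated gene start, are given for comparison with CG in capitals, 33 times in the first and 9 times in the second:

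*Isl1*, chr13:116309689-116309938, minus strand: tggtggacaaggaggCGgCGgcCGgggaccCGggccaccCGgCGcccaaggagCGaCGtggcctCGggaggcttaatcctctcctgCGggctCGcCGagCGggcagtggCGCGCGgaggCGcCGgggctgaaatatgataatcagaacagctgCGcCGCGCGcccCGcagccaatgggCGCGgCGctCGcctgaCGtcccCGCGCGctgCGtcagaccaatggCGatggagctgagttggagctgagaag

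*Nkx2-1*, chr12:56536909-56537158, minus strand: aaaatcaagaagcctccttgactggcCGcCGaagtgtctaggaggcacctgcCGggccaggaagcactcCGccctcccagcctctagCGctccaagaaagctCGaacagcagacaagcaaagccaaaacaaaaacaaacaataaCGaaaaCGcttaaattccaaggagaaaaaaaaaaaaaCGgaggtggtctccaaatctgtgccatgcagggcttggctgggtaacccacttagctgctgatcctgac

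The sequence shown for *Isl1* lay wholly inside an H3K4me3-ChIP peak, whereas that of *Nkx2-1* was outside, because the peak of *Nkx2-1* began 6 bp downstream of the gene start.

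**Figure D1:**
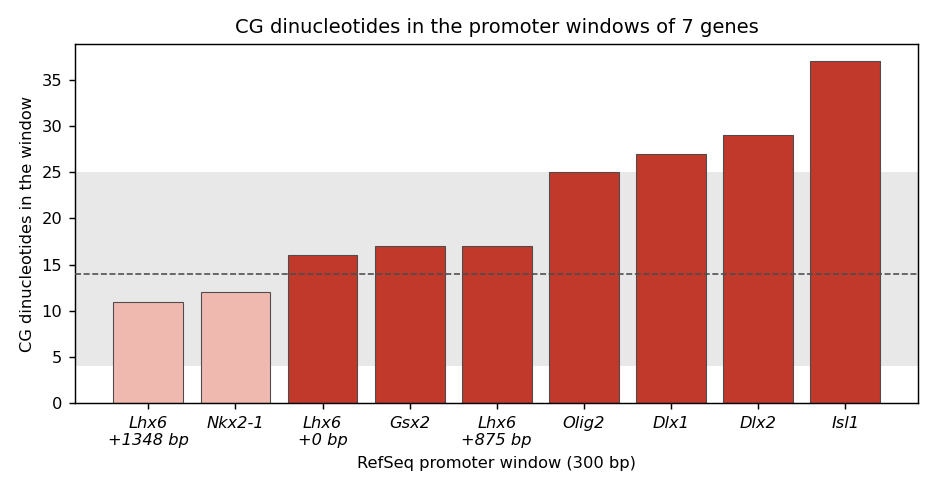
Number of CG dinucleotides in each RefSeq promoter window (1 bar per window; *Lhx6* windows are labelled by the distance of their start site from the gene start). The dashed line is the median of 14 over windows of protein-coding genes, the grey band their interquartile range of 4 to 25, and pale bars mark start sites outside H3K4me3-ChIP peaks. *Isl1* stands highest at 37, and the pale bars, *Nkx2-1* at 12 and an internal *Lhx6* site at 11, are the lowest.

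All 9 genes had an H3K4me3-ChIP peak in the cortex, against 65.4% of protein-coding genes. A count of 9 of 9 has a Wilson 95% confidence interval from 70.1%, which covers counting error only, as do all such intervals here. Such intervals take the genes as independent random draws. The genes of every list were chosen by name, and the 9 genes lie at 7 loci, so the limit is no test against the 65.4%. The genes held 25 peaks together. *Dlx6* had 7, *Dlx1* and *Lhx6* had 5 each, *Dlx2* and *Olig2* had 2 each, and *Dlx5*, *Gsx2*, *Nkx2-1* and *Isl1* had 1 each. Having 5 or more peaks was found for 3 of the 9 genes and for 1.17% of the 14352 protein-coding genes with a peak. Of the 25 peaks, 9 were narrower than 500 bp, against 21% of all 18816 peaks. A fold enrichment below 10 was found for 15 of 25, against 25.4% of all peaks. The fold enrichment is the signal at the summit over the local background as MACS2 gives it. Most of the narrow and most of the weak peaks were at *Dlx6*, *Dlx1* and *Lhx6*, so both shares mainly describe these 3 genes. *Dlx2*, *Dlx5*, *Gsx2* and *Isl1* had no peak of either kind. In tissue, a mark on few cells and a weak mark on many cells cannot be told apart.

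The marked regions were long and their enrichment was modest. The bases covered by peaks ranged from 1810 bp at *Isl1* to 7988 bp at *Dlx6*, with a median of 3890 bp, and were above the median of marked protein-coding genes, 1565 bp, in 9 of 9 genes (background 50%). The highest fold enrichment per gene ranged from 6.64 at *Nkx2-1* to 47.0 at *Dlx2*, with a median of 19.8. It was above the median of marked protein-coding genes, 40.1, in 1 of 9 genes (background 50%). In descending order the highest fold enrichment was 47.0 at *Dlx2*, 37.7 at *Isl1*, 27.7 at *Dlx1*, 23.9 at *Dlx5*, 19.8 at *Dlx6*, 16.2 at *Lhx6*, 15.1 at *Gsx2*, 12.9 at *Olig2* and 6.64 at *Nkx2-1*. Whether neighbours in this order differ could not be tested.

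**Figure D2:**
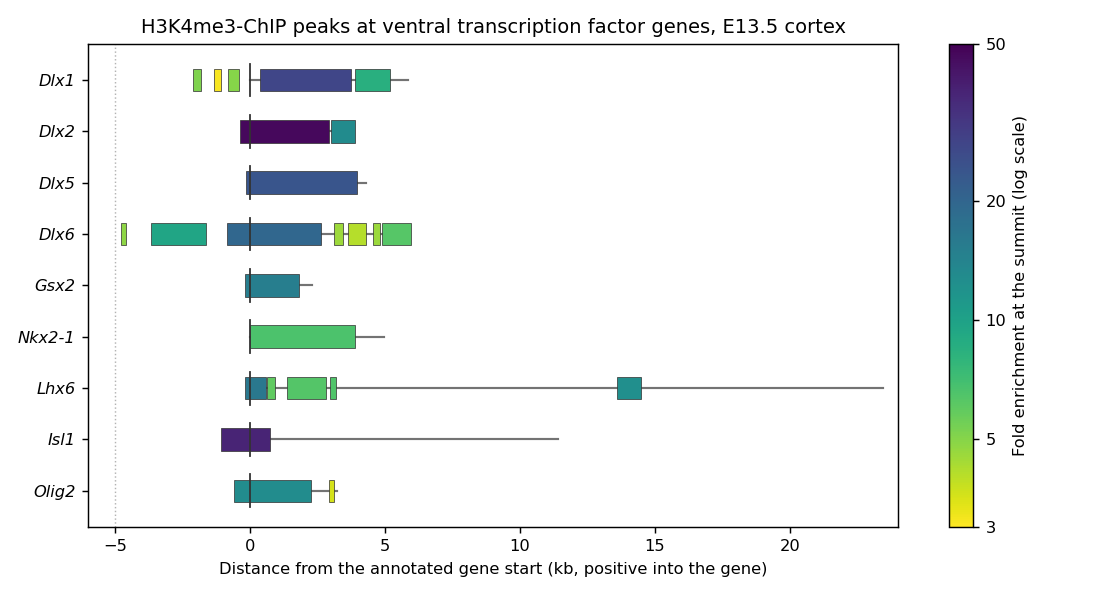
H3K4me3-ChIP peaks counted for each gene, by distance from the annotated gene start in kb, positive into the gene. Boxes are peaks coloured by fold enrichment on a log scale, grey lines are the genes, vertical ticks the gene starts and the dotted line the limit 5 kb upstream. Peaks cover most of the short genes from *Dlx1* to *Nkx2-1* and *Olig2*, and only the 5′ ends and 1 internal site of the longer *Lhx6* and *Isl1*.

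*Dlx2*, which with *Dlx1* is required for interneurons to leave the ganglionic eminences, carried the strongest peak of the 9 genes. The gene is at chr2:71543408-71546754 on the minus strand (GRCm38, as all positions here). Its main peak ran from 71543848 to 71547112 (3265 bp, 47.0-fold), with the summit 83 bp downstream of the gene start in untranslated exon sequence. A second peak of 901 bp (13.0-fold) covered the 3′ end, and together they covered 97.5% of the gene. *Dlx1* is at chr2:71528113-71533981 on the plus strand, and its main peak of 3339 bp (27.7-fold) began 386 bp downstream of the GENCODE gene start. Its summit at 71529483 was 38 bp downstream of the start site of *Dlx1* in RefSeq, which lies 1332 bp inside the GENCODE gene. The other peaks of *Dlx1* were 1 of 1299 bp (8.48-fold) toward the 3′ end and 3 upstream, each under 500 bp (3.07- to 5.18-fold). All 5 overlapped the antisense gene *Dlx1as*, and the mark does not tell the strands apart. Between *Dlx1* and *Dlx2*, over 9426 bp, 5 further peaks of 4.01- to 7.58-fold were outside both windows. Over the 18642 bp from the start of *Dlx1* to the start of *Dlx2*, H3K4me3-ChIP peaks covered 57.2%.

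*Dlx5* and *Dlx6*, which act in the same lineage, form a second pair on chromosome 6 with the 3′ ends facing each other, as in the first. *Dlx5* (chr6:6877805-6882085, minus strand) had the widest single peak of the 9 genes, from 6878116 to 6882232 (4117 bp, 23.9-fold), which ranked 144 by width among all 18816 peaks and covered 92.7% of the gene. *Dlx6* (chr6:6863334-6868568, plus strand) had its main peak from 6862478 to 6865958 (3481 bp, 19.8-fold), with the summit in an intron 772 bp downstream of the gene start. Its other 6 peaks were 4.11- to 9.61-fold, and the widest of these, 2039 bp, lay wholly upstream. All 7 overlapped the antisense gene *Dlx6os1*, and the main peak also overlapped *Dlx6os2*. When peaks at most 1 kb apart were joined, those of *Dlx6* and 1 further peak formed a domain of 13035 bp, wider than the widest domain of 99.96% of marked protein-coding genes. The corresponding domain at *Dlx1* had 9466 bp. Between *Dlx6* and *Dlx5*, 2 peaks of 7.66- and 8.41-fold lay in the 9236 bp, and from start to start 56.8% of 18752 bp was covered.

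*Nkx2-1*, the determinant of the medial ganglionic eminence, had a peak that was wide and weak. The gene is at chr12:56531958-56536908 on the minus strand, and its only counted peak ran from 56533013 to 56536902 (3890 bp) with a fold enrichment of 6.64 and a −log10 q-value of 13.2. The peak covered 78.6% of the gene and 1 of 2 transcript start sites, and its summit was in an intron 987 bp downstream of the gene start. It also overlapped the antisense gene *Gm26973*. Of the 184 H3K4me3-ChIP peaks in the genome at least as wide, none had a lower fold enrichment.

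*Gsx2*, expressed in progenitors of the lateral ganglionic eminence, is at chr5:75075601-75077893 on the plus strand. Its peak from 75075419 to 75077422 (2004 bp, 15.1-fold) covered 79.5% of the gene, and the summit was in a coding exon 498 bp downstream of the start. *Olig2*, a factor of ventral progenitors and of the oligodendrocyte lineage, is at chr16:91225457-91228677 on the plus strand. It had a peak from 91224848 to 91227697 (2850 bp, 12.9-fold) over the start and a second of 178 bp (3.59-fold) near the 3′ end. Both genes thus had a single main peak over the start and most of the gene body, in each case below 16-fold.

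*Lhx6*, which acts downstream of Nkx2-1 in interneurons of the medial eminence, is at chr2:36081953-36105408 on the minus strand. Its peaks were separate and short. The strongest, from 36104819 to 36105610 (792 bp, 16.2-fold), covered the gene start. The widest, of 1463 bp, was at 6.35-fold and lay 1366 to 2828 bp downstream of the start. A peak of 886 bp (12.5-fold) had its summit in a coding exon 14010 bp from the start. *Isl1*, which is used in striatal projection neurons and in many neurons outside the telencephalon, is at chr13:116298281-116309689 on the minus strand. It had 1 peak from 116308958 to 116310767 (1810 bp, 37.7-fold), whose summit was at −271 bp from the gene start and which covered 6.42% of the gene. Of the genes examined, *Isl1* had the shortest covered length and the second highest fold enrichment.

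Peaks were next compared with annotated start sites. The annotated gene start was inside a peak in 7 of 9 genes, against 82.5% of marked protein-coding genes, the exceptions being *Dlx1* and *Nkx2-1*. Of 31 distinct transcript start sites of the 9 genes, 25 were inside a peak, against 58.9% of the 75839 start sites of marked protein-coding genes.

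The width of the main peaks was next compared with that of other genes. The widest peak reached 2000 bp in 7 of 9 genes, all but *Lhx6* and *Isl1*, and in 20.8% of marked protein-coding genes. It also did so in 20 of 30 marked genes of a list of other ventral and interneuron genes, in 12 of 12 cortical progenitor factors and in 7 of 12 neurogenic and projection neuron factors, lists described further on. Among the 2532 H3K4me3-ChIP peaks of at least 2000 bp the median fold enrichment was 46.1, with an interquartile range of 34.2 to 58.0, and 13.9% were below the median of all peaks, 27.5. In the 7 genes, the widest peak was below that value in 5, *Dlx5*, *Dlx6*, *Gsx2*, *Nkx2-1* and *Olig2*, while *Dlx1* was just above it at 27.7 and *Dlx2* was at 47.0. The limit of 2000 bp and this comparison were chosen after the values were seen. *Gsx2* at 2004 bp was just above that limit, and *Isl1* at 1810 bp was the nearest below it. Among the 2532 wide peaks, only 1 had a lower fold enrichment than *Nkx2-1*. A lower value was found in 0.790% of them for *Olig2*, 1.90% for *Gsx2*, 4.90% for *Dlx6*, 8.97% for *Dlx5*, 14.2% for *Dlx1* and 52.2% for *Dlx2*.

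**Figure D3:**
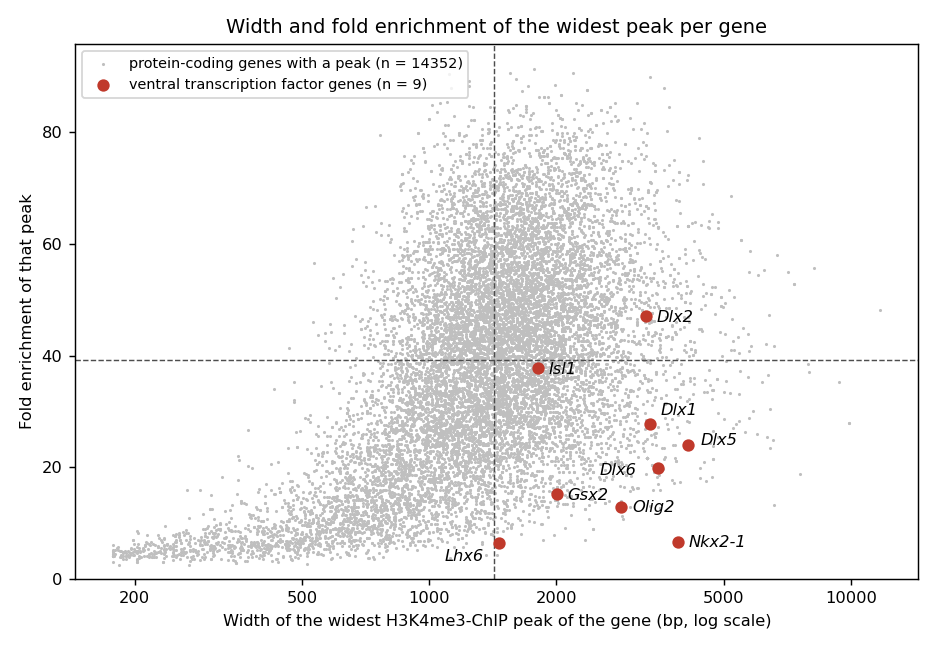
Width in bp (log scale) and fold enrichment of the widest H3K4me3-ChIP peak of each gene. Grey points are the 14352 marked protein-coding genes, red points the 9 genes, and dashed lines the medians of the grey points (1427 bp and 39.2-fold). The red points lie to the right of the median width, and all but *Dlx2* lie below the median fold enrichment, with *Nkx2-1* at 3890 bp and 6.64-fold on the lower edge.

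The sequence under these wide peaks was examined for CG dinucleotides. Over all 2532 wide peaks, the median ratio of observed to expected CG was 0.722, with an interquartile range of 0.623 to 0.815. Of the 7 genes, *Dlx5* at 0.598 and *Dlx6* at 0.568 were below this range. *Dlx1* at 0.631, *Gsx2* at 0.654, *Nkx2-1* at 0.692, *Dlx2* at 0.726 and *Olig2* at 0.785 were inside it. *Nkx2-1* and *Dlx2*, at 6.64- and 47.0-fold the weakest and strongest of the 7 peaks, thus both lay near the median ratio.

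No NF-Y-ChIP peak lay in or within 5 kb upstream of any of the 9 genes. The share among protein-coding genes was 3.69%, and 5.6% among those with an H3K4me3-ChIP peak, so a count of 0 of 9 is near the background. It allows a share of up to 29.9% (Wilson 95% limit) if the genes are taken as independent. The nearest NF-Y-ChIP summit was 701 kb from the start of *Nkx2-1*, in a peak of 9.71-fold next to *Brms1l*. It was 983 kb away for *Gsx2*, 1333 kb for *Lhx6*, where it belonged to *Hspa5*, the gene of an endoplasmic reticulum chaperone, 1377 kb for *Dlx5*, 1396 kb for *Dlx6*, 1500 kb for *Dlx2* and 1519 kb for *Dlx1*. *Olig2* was 3302 kb and *Isl1* 7993 kb from the nearest. All 9 were thus beyond 500 kb, as were 56.4% of marked protein-coding genes. The promoters of *Isl1* and *Olig2*, with 2 CCAAT or ATTGG each in the sequences shown above and with H3K4me3 over them, were among those without NF-Y-ChIP peaks.

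Other genes of the ventral and interneuron programme were then examined, a list of 32 that holds transcription factors, the enzymes and transporter of GABA neurons, and ligands and receptors. An H3K4me3-ChIP peak was found at 30 of 32 (93.8%, Wilson 95% confidence interval 79.9 to 98.3%). The exceptions were *Sst*, which encodes the neuropeptide somatostatin of a class of interneurons, and *Npas1*. The median covered length was 3414 bp and the median of the highest fold enrichment was 21.7 (6.04 to 51.7), close to the 3890 bp and 19.8 of the 9 genes, and the fold enrichment was above the median of marked genes in 6 of the 30. The largest covered lengths were 13431 bp at *Meis2*, 8429 bp at *Nr2f2* and 7424 bp at *Sox6*, with a highest fold enrichment of 48.2, 51.7 and 29.7. The 6 genes above the median of marked genes were *Nr2f2*, *Meis2*, *Foxp1* at 49.6-fold, *Foxp2* at 49.2-fold, *Satb1* at 45.2-fold and *Zeb2* at 42.7-fold. The list was made by name, and whether its genes are also active in dorsal cortical cells was not tested. The genes for the synthesis and vesicular transport of GABA were marked, with a highest fold enrichment of 18.2 at *Gad1*, 28.9 at *Gad2* and 19.8 at *Slc32a1*. No peak of *Gad1* lay within 5 kb of the annotated gene start. Its 6 peaks, the widest of 2526 bp, lay farther inside the gene. *Shh*, the ligand that patterns the ventral telencephalon, reached 15.2-fold, its transcriptional target *Gli1* 7.02-fold, and *Gsx1*, the paralogue of *Gsx2*, 6.62-fold. *Lhx8*, which like *Lhx6* is induced in the medial eminence, reached 7.77-fold, and *Olig1*, the neighbour of *Olig2*, 9.46-fold. None of the 32 had an NF-Y-ChIP peak.

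Transcription factors of cortical progenitors, which are active in the tissue sampled, served for comparison. All 12 had H3K4me3-ChIP peaks, with a median covered length of 6546 bp and a median highest fold enrichment of 39.8. The highest fold enrichment of 7 of the 9 ventral genes, all but *Dlx2* and *Isl1*, was below the lowest of these 12, 30.1 at *Sox2*. Within 5 kb of the gene start only, the lowest of the 12 was 7.81 at *Pax6*, which has a strong peak farther inside the gene, and only *Nkx2-1* was below it. The largest covered lengths were 13194 bp at *Lhx2*, 11690 bp at *Pax6* and 10982 bp at *Nr2f1*. A widest peak of at least 2000 bp with a fold enrichment below the median of all peaks was found in 0 of the 12 and in 5 of the 9, against 2.79% of marked protein-coding genes. It was also found in 10 of the 30 marked genes of the other ventral and interneuron list. The 12 neurogenic and projection neuron transcription factors were all marked too, with a median covered length of 3820 bp and a median highest fold enrichment of 19.3 (4.61 to 53.4), which is close to that of the ventral genes, and 3 of these 12 had a wide and weak peak. *Bcl11b* (6702 bp), *Myt1l* (6393 bp) and *Sox5* (5602 bp) had the largest covered lengths there. With 1 library, none of these differences between lists could be tested.

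Genes of other tissues and cell types were examined last. Of 16 transcription factors of tissues outside the nervous system, 6 had a peak (37.5%, Wilson 95% confidence interval 18.5 to 61.4%), with a median covered length of 626 bp and a highest fold enrichment of 4.34 to 16.6. *Spi1* (1072 bp), *Tal1* (807 bp) and *Tbx5* (628 bp) had the largest covered lengths. Within 5 kb of the annotated gene start, only *Spi1* and *Gata6* had a peak, 2 of the 16. *Gata1*, *Myod1*, *Myf5*, *Pdx1*, *Cdx2*, *Nkx2-5*, *Sox17*, *Foxa2* and *Hand1* were among those without a peak. All 9 ventral genes had a larger covered length than any of these 16, whereas the fold enrichments overlapped. Of 16 markers of vessels, meninges, microglia and blood, 6 had a peak, with a median covered length of 1014 bp and a median highest fold enrichment of 9.97 (4.76 to 33.2). The largest covered lengths were those of *Cx3cr1* (3420 bp, none of it within 5 kb of the annotated gene start), *Foxc1* (2410 bp) and *Kdr* (1312 bp). *Cx3cr1* at 33.2-fold and *Kdr*, an endothelial receptor, at 30.2-fold were above 7 of the 9 ventral genes. *Pecam1*, *Cdh5*, *Tie1*, *Tek*, *Rgs5*, *Aif1*, *Csf1r*, *C1qa*, *Hbb-bs* and *Hba-a1* had none. Markers of the cortex itself were all marked but differed in level, with *Emx1* at 41.0-fold and *Lhx2* at 44.3-fold among progenitor factors. Among neurogenic and projection neuron factors, *Tbr1* was at 21.2-fold, *Eomes* at 13.9-fold and *Neurod6* at 4.61-fold. Whether interneurons that had entered the cortex, or ventral tissue at its border, contributed to the peaks of the 9 genes was not tested.

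**Figure D4:**
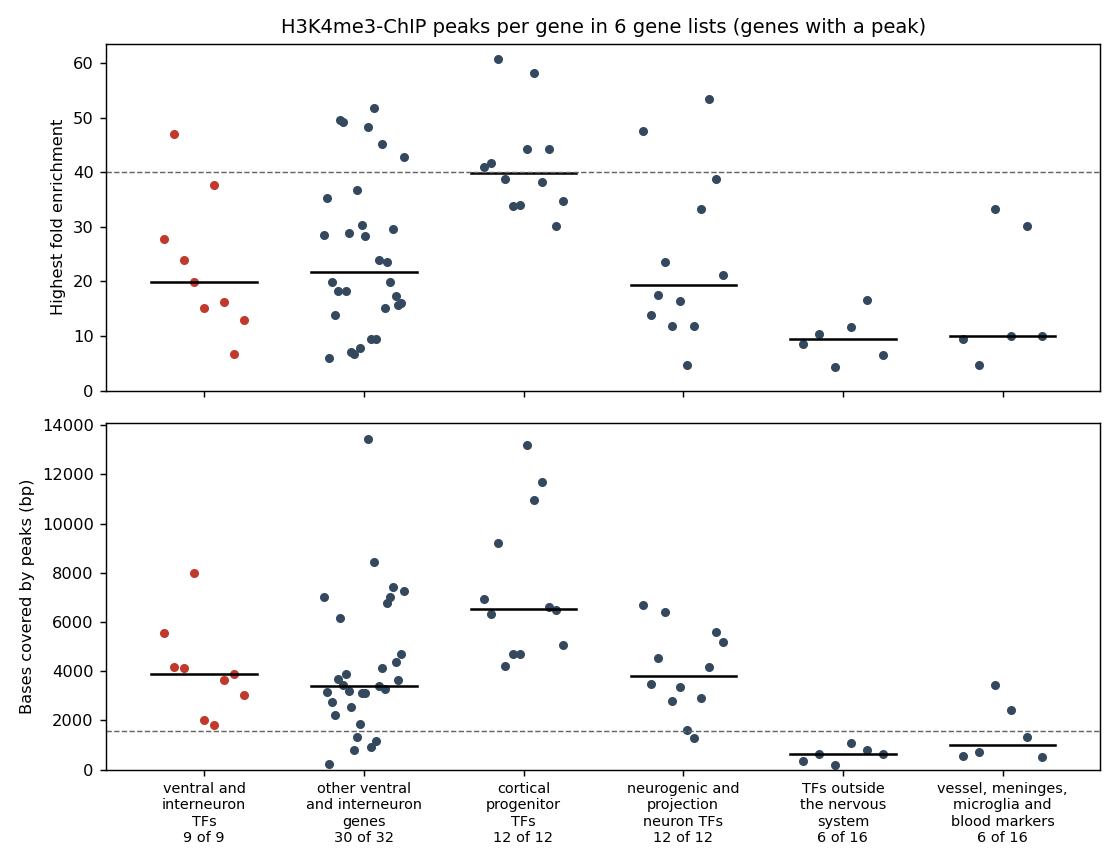
Highest fold enrichment (top) and bases covered by H3K4me3-ChIP peaks (bottom, bp) for each gene with a peak in 6 lists. Points are genes, short lines the list medians and dashed lines the medians of marked protein-coding genes (40.1-fold and 1565 bp), and the labels give how many genes of each list had a peak. The 9 ventral genes (red) lie above the dashed line for covered bases, and all but *Dlx2* lie below it for fold enrichment, while the cortical progenitor factors lie around it.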

How the data were processed

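Libraries of input, NF-Y-ChIP and H3K4me3-ChIP from cortices at E13.5 were sequenced as paired ends. After trimming by Trimmomatic, the authors mapped reads on mm10 (GRCm38) using Bowtie 2 (2.2.8 per the submitters' processing notes). MACS2 (2.1.2, same notes) called peaks with a q-value cut-off of 0.05 (H3K4me3-ChIP) or a p-value cut-off of 0.001 (NF-Y-ChIP). The input served the study as negative control. Whether it was the background in peak calling is not given in the sources used here. MACS2 in this mode can split a broad region into several narrow peaks. The deposited fold enrichment is a ratio of summit signal to local background, the deposited −log10 values belong to p- and q-values, and the deposited score is 10 times one of them. Score and threshold, and for NF-Y-ChIP the number of peaks, were used to assign the lists to the antibodies. No read counts were at hand.

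Genes and transcript starts were those of GENCODE M21 (55450 genes), and overlap was counted from 1 bp. Positions are 1-based. All names in the lists matched the annotation. Percentiles are shares of genes or peaks with a lower value. Promoter windows and start sites came from RefSeq, and the 9 windows were identical to the GRCm38 genome. The members and the lists were chosen with earlier results of these data known. Named were all members, the genes sharing their peaks and, of each other list, the genes without a peak and the 3 with the largest covered length. A few items that this rule or the motif search found are not reported here. Other genes were named after their values were seen. Functions were tested on simulated data. Python 3.11.15, pandas 2.3.3, NumPy 2.4.6, SciPy 1.17.1, pysam 0.24.0, samtools 1.23.1 and matplotlib 3.10.9 were used.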

Additional observations from a re-analysis of the deposited data

How the results depend on the processing

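All 9 genes kept an H3K4me3-ChIP peak within 1 kb of any transcript start, within 1 kb of the gene start, with summits required in the window and with −log10 q-values of 10 or more. With only the peaks above the median fold enrichment of all peaks, 3 of 9 had one, *Dlx1*, *Dlx2* and *Isl1*, against 46.9% of protein-coding genes. NF-Y-ChIP peaks stayed at 0 of 9 within 50 kb upstream, within 1 kb of transcript starts and at q < 0.05. The counts above the median covered length (9) and fold enrichment (1) were the same within 5 kb of the gene start, against all annotated genes and with the widest peak alone. With 500 bp to each side of the RefSeq start, CCAAT or ATTGG was found in 7 of 7 genes, against 69.9% of marked genes. With CCAAT required to follow 2 purines and to precede C or G and a purine, 3 of 7 genes had it, against 16.3%. The median domain width of 3890 bp was unchanged with gaps of 500 bp or 2 kb and was 3265 bp without joining. No paired analysis was possible because each antibody has 1 library, and for the same reason no library could be left out. Weak regions below the peak threshold at this unknown depth cannot be seen in the lists.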

Other observations

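Several H3K4me3-ChIP peaks lay near the genes but outside the windows used above. At *Gsx2*, a peak of 469 bp (14.6-fold) lay 7965 bp upstream of the gene, nearly as strong as the 15.1-fold peak of the gene itself. Upstream of *Dlx6*, 3 peaks of 3.59- to 5.35-fold began 5971 to 6546 bp from the gene. Downstream of *Nkx2-1*, 3 short peaks of 5.13- to 6.29-fold were found, against 6.64-fold for the wide peak on the gene. No further peak lay within 15 kb of *Lhx6*, *Isl1* or *Olig2*.

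The 10 peaks with the lowest fold enrichment among the 2532 of at least 2000 bp were listed after the values were seen. They included the *Nkx2-1* peak in second place and the upstream peak of *Dlx6* (9.61-fold) in seventh place. The lowest, of 3332 bp and 5.46-fold, lay at *Islr* and *Islr2*. In ascending order, the others lay at *Inpp5f* (6.99-fold), *Pdzd7* and *Sfxn3* (8.95-fold), no listed gene (9.02-fold) and *Mtus1* (9.09-fold). Those above the *Dlx6* peak lay at *Nrxn3* (10.7-fold), *Wnt7b* (10.7-fold) and *Grin2a* (10.8-fold).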
